A study of Mus musculus with 6 samples.

Results

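The integrin, laminin and basement membrane genes are the receptors and the sheet-like matrix through which cells hold on to their surroundings. They were taken by gene name from the array annotation: every integrin alpha and beta gene, every laminin chain, both nidogens, agrin and perlecan. The rule found 41 genes with 85 probes among 27827 genes with 41174 probes, and 36 of these genes had a probe that was well above background on 3 or more arrays and were tested. Pancreatic islets of male mice of the NZO/HiBomDife strain, labelled diabetes-prone and called NZO here, were compared with islets of male C57BL/6.V-Lepob/ob mice, labelled diabetes-resistant and called B6-ob/ob here. Each strain had 3 one-colour Agilent arrays (NZO replicates 10, 11 and 12; B6-ob/ob replicates 4, 5 and 6). Mice of both strains ate a high-fat diet free of carbohydrate up to 18 weeks of age and then a diet with carbohydrate for 48 h, so every array comes from after the change of diet. All differences below are therefore between 2 obese strains that differ across the whole genome, and the ob/ob mutation, which removes leptin, is labelled in the B6-ob/ob mice only. Whether islets of several mice were pooled for an array is not labelled, so p-values cover only the spread among these 6 samples.

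Integrins are receptors made of 1 alpha and 1 beta chain that bind matrix proteins outside the cell and the actin or keratin skeleton inside it. Laminins are trimers of an alpha, a beta and a gamma chain that form the first network of a basement membrane, which nidogens, agrin and perlecan join to the type IV collagen network. In mouse islets most basement membrane lies around the capillaries, is made largely by their endothelial cells, and is met by the endocrine cells through integrins that share the beta chain Itgb1.

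A level is given as the log2 intensity of a gene's brightest measured probe relative to the 75th percentile of its array, and can be compared between arrays but not between genes. A difference is NZO minus B6-ob/ob on that log2 scale, and a gene was called higher or lower where limma's adjusted p over all 16418 genes tested was under 0.05. The arrays had 23621 to 24710 probes well above background and no saturated spots, and correlations between arrays were 0.9853 to 0.9894 within NZO, 0.9681 to 0.9872 within B6-ob/ob and 0.9281 to 0.9479 between the strains. The strain labels were checked with Ifi202b and H2-Ea, genes silent in C57BL/6 mice. Both were well above background on 3 of 3 NZO arrays and on 0 of 3 B6-ob/ob arrays. The columns of the deposited value table go the other way: each correlated best with an array of the other strain (0.9438 to 0.9708) and negatively with the array of its own label (-0.4021 to -0.6333). All 20 called genes of the set that it holds had the opposite sign there, so that table was not used further.

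Of the 36 tested genes, 19 were higher and 2 were lower in NZO islets, and 15 did not pass the test. Over all genes tested, 22.2% were called in either direction, 13.2% higher and 9% lower. The differences of the set had a median of 0.72 and lay above 0 for 31 of 36 genes, beside a median of -0.03 over all genes tested. All 3 NZO arrays lay above all 3 B6-ob/ob arrays for 23 genes and below them for 2 genes, where 20.7% and 20.4% of all genes showed these arrangements. Among the 30 genes measured above background on all 6 arrays, 17 were higher and 2 lower, where 20% of all such genes were called. The count of higher genes fell to 11 without B6-ob/ob replicate 5 and to 11 with slide as a block, a fit that calls 14.2% of all genes and gives NZO replicate 12, alone on its slide, no weight. Within slides 2 and 3, which held arrays of both strains, the median difference of the set was 0.47 and 0.70, against -0.05 and 0.02 over all genes. With normexp background correction in place of the processed signal, the median of the set was 0.52 and the differences of several genes were smaller, as given beside them. That correction added an offset of 50 to every spot, and such a constant makes log2 differences smaller, most of all at dim probes.

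The probes that carry the laminin results are shown first, because Lama2 and Lama4 were read at more than one place and these places did not always give the same value. Both are on chromosome 10, and the positions are those the files give on mm9. The first Lama4 probe (chr10:38825794-38825853, + strand) and the second (chr10:38825032-38825822, + strand) share the 29 bases in capitals, and the second covers 791 bases of the genome with its 60 bases. The Lama2 probes (chr10:26704229-26704288 and chr10:26710714-26712724, - strand) share no bases with each other.
Lama4 first probe: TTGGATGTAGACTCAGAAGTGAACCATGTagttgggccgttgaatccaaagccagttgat
Lama4 second probe: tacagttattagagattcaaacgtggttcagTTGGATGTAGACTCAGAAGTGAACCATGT
Lama2 first probe: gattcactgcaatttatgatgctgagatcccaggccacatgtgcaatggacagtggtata
Lama2 second probe: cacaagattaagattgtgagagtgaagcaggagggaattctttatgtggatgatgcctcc

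Most laminin, nidogen, agrin and perlecan genes were higher. Of 13 tested, 10 were higher and 1 was lower in NZO islets (84.6% called, against 22.2% of all genes). Their median difference was 0.91. Lama1 and Lamc3 were well above background on too few arrays to be tested (0 and 1 NZO arrays, and 0 B6-ob/ob arrays for both).

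Laminin alpha chains carry the site that integrins and dystroglycan bind. Lama2, the chain of muscle and nerve sheath basement membranes, stood at -0.98, -0.87 and -0.78 on the NZO arrays, against -2.86, -3.28 and -3.56 on the B6-ob/ob arrays. The strains were far apart, by 2.36 (SE 0.19; 5.13-fold; adjusted p = 0.00078), or by 1.45 with normexp correction (adjusted p = 0.000357). The second Lama2 probe gave 1.82 (adjusted p over all probes 0.00418). Lama4, the alpha chain typical of capillaries, had levels of 0.15, 0.07 and 0.16 in NZO islets and of -1.08, -0.95 and -0.96 in B6-ob/ob islets. The arrays of each strain lay close together and far from the other strain, with a difference of 1.12 (SE 0.10, the smallest in the set; 2.18-fold; adjusted p = 0.00115). The second Lama4 probe, which shares bases with the first, gave 0.19 (95% interval -0.10 to 0.48; adjusted p over all probes 0.314). The mean of all measured Lama4 probes was also higher in NZO islets, by 0.77 (adjusted p = 0.00768).

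Lama5, the most widespread alpha chain of adult epithelial and vessel basement membranes, did not pass the test. It stood at 0.24, 0.50 and 0.27 on the NZO arrays and at 0.67, 0.69 and -0.02 on the B6-ob/ob arrays. These overlap, with a difference of -0.11 (95% interval -0.65 to 0.43; adjusted p = 0.775). The endothelial marker list, for cells that make much of this matrix, had 4 of 13 genes higher and 0 lower (30.8% called, against 22.2% of all genes). Its summed levels (each array's 75th percentile set to 1) were 89.1, 87.9 and 104.8 in NZO islets and 78.7, 78.3 and 75.5 in B6-ob/ob islets. The part of these cells in the laminin values was not tested. In bulk RNA, fewer cells of a type and less RNA per cell cannot be told apart.

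Laminin beta chains were higher in 3 of 3 cases. Lamb2, found in the basement membranes of vessels, kidney and synapses, measured 1.71, 1.91 and 1.70 in NZO islets, against 0.62, 0.44 and 0.06 in B6-ob/ob islets. This is a difference of 1.40 (SE 0.17; 2.64-fold; adjusted p = 0.00296). Lamb1, listed in the files as Lamb1-1 and the beta chain of most embryonic and many adult laminins, stood at -0.54, -0.91 and -0.47 in NZO islets and at -1.11, -1.57 and -1.49 in B6-ob/ob islets. Its difference of 0.75 (adjusted p = 0.0333) separated the strains by less, and the call was lost without NZO replicate 10 or 12 or B6-ob/ob replicate 5 or 6 (adjusted p = 0.075 to 0.124) and with slide as a block (0.0588).
Lamc1, the gamma chain of most laminins, had levels of 2.32, 2.25 and 2.71 in NZO islets, against 1.39, 1.57 and 1.64 in B6-ob/ob islets. It differed by 0.89 (SE 0.16; 1.86-fold; adjusted p = 0.0114) with no overlap.

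Lama3 and Lamb3 encode chains of the laminin that anchors stratified and glandular epithelia. Lamb3 stood at -2.16, -2.03 and -2.19 on the NZO arrays and at -4.10, -5.20 and -6.56 on the B6-ob/ob arrays. It was above background on 3 NZO arrays but only 1 B6-ob/ob array, so its fitted difference of 3.16 (SE 0.58; adjusted p = 0.0122) rests on dim B6-ob/ob spots, and it missed the threshold with slide as a block (adjusted p = 0.0511). With normexp correction the difference was 1.17 (adjusted p = 0.00247). Lama3 measured -1.26, -1.32 and -1.10 in NZO islets and -2.09, -1.90 and -1.72 in B6-ob/ob islets. Its difference of 0.68 (adjusted p = 0.0178) was lost as a call without any 1 NZO array or without B6-ob/ob replicate 5 (adjusted p = 0.0527 to 0.0749) and with slide as a block (0.0786). A second, dim probe gave -0.35 (adjusted p over all probes 0.179), and the mean of both probes gave 0.16 (adjusted p = 0.338). With normexp and quantile scaling the difference was 0.44 (adjusted p = 0.0135).

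Agrin, nidogen-1 and perlecan were all higher. Agrn encodes a heparan sulfate proteoglycan best known for gathering acetylcholine receptors at the nerve-muscle synapse, and its probe lies at chr4:155539434-155539493 (mm9, - strand). Its levels were 3.89, 4.20 and 4.02 in NZO islets, against 2.42, 2.20 and 2.17 in B6-ob/ob islets. The lowest NZO array lay well above the highest B6-ob/ob array, and the difference was 1.78 (SE 0.14; 3.43-fold; adjusted p = 0.000613). Hspg2, which encodes perlecan, the main heparan sulfate proteoglycan of vessel walls, had 2.38, 2.50 and 2.76 in NZO islets and 1.94, 1.53 and 1.42 in B6-ob/ob islets. It differed by 0.91 (adjusted p = 0.0166), a call lost without NZO replicate 11 or B6-ob/ob replicate 5 (adjusted p = 0.0567 and 0.0737) and with slide as a block (0.0754).
Nid1, the linker between laminin and type IV collagen, stood at 1.65, 1.36 and 1.95 in NZO islets and at 0.82, 0.70 and 0.69 in B6-ob/ob islets. All NZO arrays were higher, by a mean of 0.92 (SE 0.17; 1.89-fold; adjusted p = 0.0124), and the call was lost without B6-ob/ob replicate 5 (adjusted p = 0.0576). Nid2, its paralog, overlapped between strains at -0.63, -0.85 and -0.20 in NZO islets and -0.95, -0.62 and -0.91 in B6-ob/ob islets (difference 0.27; 95% interval -0.21 to 0.75; adjusted p = 0.398).

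**Figure D1:**
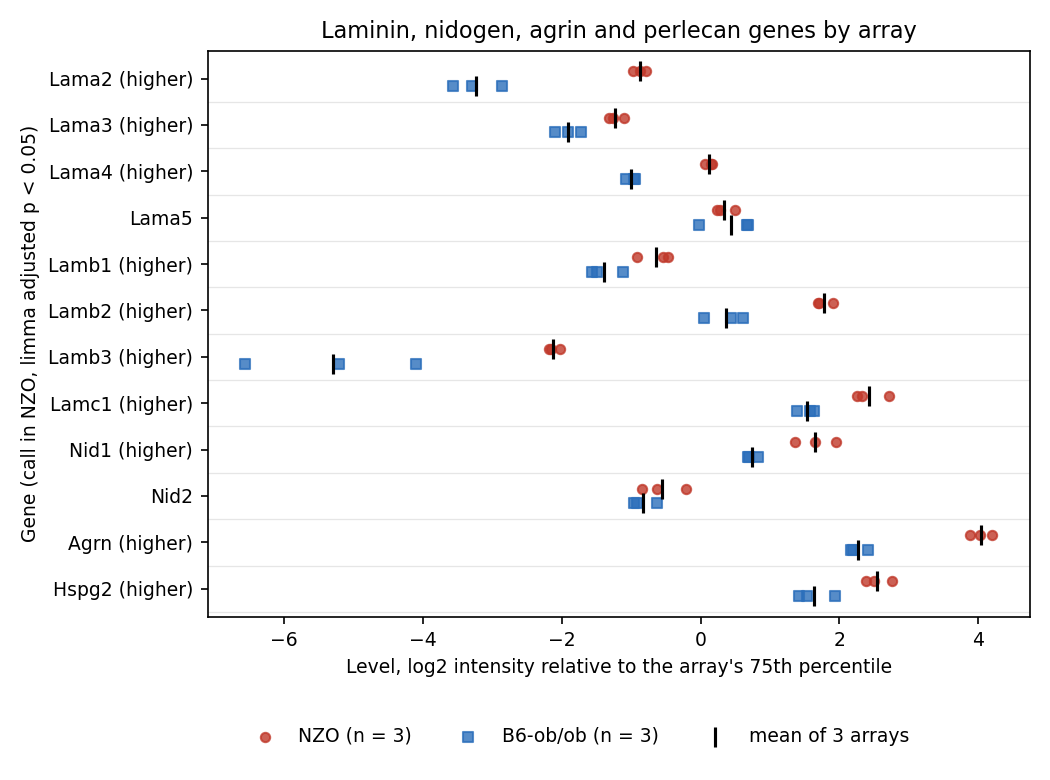
Levels of 12 laminin, nidogen, agrin and perlecan genes on each array (log2 intensity relative to the array's 75th percentile; circles NZO, squares B6-ob/ob, bars the mean of 3 arrays), to be compared within a row only. All circles lie to the right of all squares in 10 rows and overlap with them at Lama5 and Nid2, and the squares of Lamb3 spread from -4.10 to -6.56.

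The promoters of Agrn and Nid1 are shown because these 2 genes were higher and differ in the motifs they hold. RefSeq sequences on GRCm38.p6 run from 250 bases before the start to 50 after it. Of the 36 tested genes 24 matched, with 28 promoters, and 12 of the 19 higher genes matched, with 14 promoters. Capitals mark matches on either strand, which may overlap. They are the GC box, searched as GGGCGG, the CCAAT box, searched by the letters of its name, and the TEAD site, searched as GGAATG. The Agrn promoter (chr4:156197439-156197738, - strand, the first of 2 listed) holds 12 GC boxes and neither of the other motifs, and the Nid1 promoter (chr13:13437352-13437651, + strand) holds 1 of each.
Agrn promoter: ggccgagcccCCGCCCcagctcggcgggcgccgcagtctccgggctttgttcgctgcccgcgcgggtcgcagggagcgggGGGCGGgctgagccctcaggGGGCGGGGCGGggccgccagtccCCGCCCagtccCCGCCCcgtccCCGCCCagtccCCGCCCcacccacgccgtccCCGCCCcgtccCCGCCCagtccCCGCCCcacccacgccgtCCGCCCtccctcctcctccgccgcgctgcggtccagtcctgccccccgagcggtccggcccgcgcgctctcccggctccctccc
Nid1 promoter: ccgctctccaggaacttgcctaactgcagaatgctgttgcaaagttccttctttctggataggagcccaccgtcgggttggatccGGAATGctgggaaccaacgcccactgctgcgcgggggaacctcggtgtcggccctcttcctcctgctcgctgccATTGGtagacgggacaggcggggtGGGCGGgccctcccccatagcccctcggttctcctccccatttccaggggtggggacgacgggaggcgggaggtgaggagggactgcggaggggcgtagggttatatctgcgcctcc
A GC box was present in 7 of the 14 promoters of higher genes and 14 of all 28 promoters of the set, against 35.7% of 32851 RefSeq promoters of the same length. CCAAT was in 2 of 14 and 5 of 28, against 37.4%, and GGAATG in 2 of 14 and 4 of 28, against 14.7%. The letters TATAAA were in 0 of 28, against 13.6%, and TGACTCA in 1 of 14 and 2 of 28, against 5.2%. These are counts of letters in a window and say nothing of binding.

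A list of 28 other basement membrane components was also examined. Of 21 tested, 11 were higher and 0 were lower (52.4% called, against 22.2% of all genes). The median difference was 1.04, and 19 of 21 differences were above 0. Ntn4 and Tinag, among the 11, were above background on 3 NZO arrays and 0 B6-ob/ob arrays. They passed the filter only through the NZO arrays. Among the called genes above background on all 6 arrays, the greatest differences were for Col18a1, whose product releases endostatin (2.65; adjusted p = 0.00414), Pxdn, the peroxidase that crosslinks type IV collagen (2.24; adjusted p = 0.000532), and Col7a1, which forms anchoring fibrils (1.74; adjusted p = 0.00252). Type IV collagen itself, singled out after its values were seen, differed less. Col4a2 was higher by 0.54 (adjusted p = 0.0435), while its partner chain Col4a1 gave 0.38 (adjusted p = 0.146). The other chains tested did not pass either, Col4a4 at 0.53 (adjusted p = 0.251) and Col4a6 at 0.23 (adjusted p = 0.642).

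Of the 23 tested integrin genes, 9 were higher, 1 was lower and 13 did not pass (43.5% called, against 22.2% of all genes). Their median difference was 0.58. Of 15 alpha genes, 6 were higher and 0 lower. Of 8 beta genes, 3 were higher and 1 was lower. Itga2, Itgam and Itgb2l were not tested because no more than 1 array showed any of them well above background.

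Itgb1, the beta chain with which most matrix-binding alpha chains pair, had levels of 1.55, 1.39 and 1.34 in NZO islets and 1.42, 1.35 and 1.23 in B6-ob/ob islets. The strains overlapped within a narrow span, with a difference of 0.10 (95% interval -0.19 to 0.38; adjusted p = 0.61).

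The greatest differences among the integrins were for alpha chains that pair with Itgb1. Itga8, a receptor for nephronectin and other RGD proteins known from kidney mesenchyme and smooth muscle, is read at its brightest probe with -0.999, -1.08 and -0.50 in NZO islets, against -3.71, -3.94 and -4.34 in B6-ob/ob islets. Every array was above background, and the difference was 3.13 (SE 0.23; 8.78-fold; adjusted p = 0.000532). With normexp correction it was 1.78 (adjusted p = 0.000188). Npnt, which encodes nephronectin, did not pass the test (-0.33; adjusted p = 0.439) and was singled out after its value was seen. Itga11, a fibrillar collagen receptor of fibroblasts, measured -1.02, -1.34 and -1.05 in NZO islets and -4.56, -6.17 and -7.52 in B6-ob/ob islets. It was above background on 3 NZO arrays and on 1 B6-ob/ob array, so that its fitted difference of 4.95 (SE 0.70; adjusted p = 0.00476) depends on spots near background, and was 1.69 with normexp and quantile scaling (adjusted p = 0.000111).

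Markers of stellate cells, pericytes and fibroblasts moved with these genes. Of that list 11 of 12 were higher and 0 lower (91.7% called, against 22.2% of all genes). Its summed levels were 75.3, 70.9 and 79.1 in NZO islets and 29.2, 21.1 and 18.8 in B6-ob/ob islets. Pdgfra was above background on 0 B6-ob/ob arrays. Acinar markers were higher for 8 of 10 and lower for 0 (80% called). Their summed levels were 1110, 1338 and 1626 in NZO islets and 628, 325 and 185 in B6-ob/ob islets. Schwann cell markers were higher for 1 of 3 tested, 2 of the 5 listed not passing the filter, with sums of 0.589, 0.559 and 0.759 in NZO islets and 0.425, 0.377 and 0.341 in B6-ob/ob islets. Endocrine markers were higher for 0 of 10 tested and lower for 1 (Nkx6-1), with overlapping sums of 3642, 4205 and 3581 in NZO islets and 4230, 3523 and 3470 in B6-ob/ob islets. The part of these cells in the integrin and basement membrane values was not tested. Among the B6-ob/ob arrays, levels were highest in replicate 4 and lowest in replicate 6, as the means of the acinar and stellate markers were, for 13 of the 19 higher genes (68.4%) and 19 of all 36 (52.8%), against 33.6% of all genes tested.

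**Figure D2:**
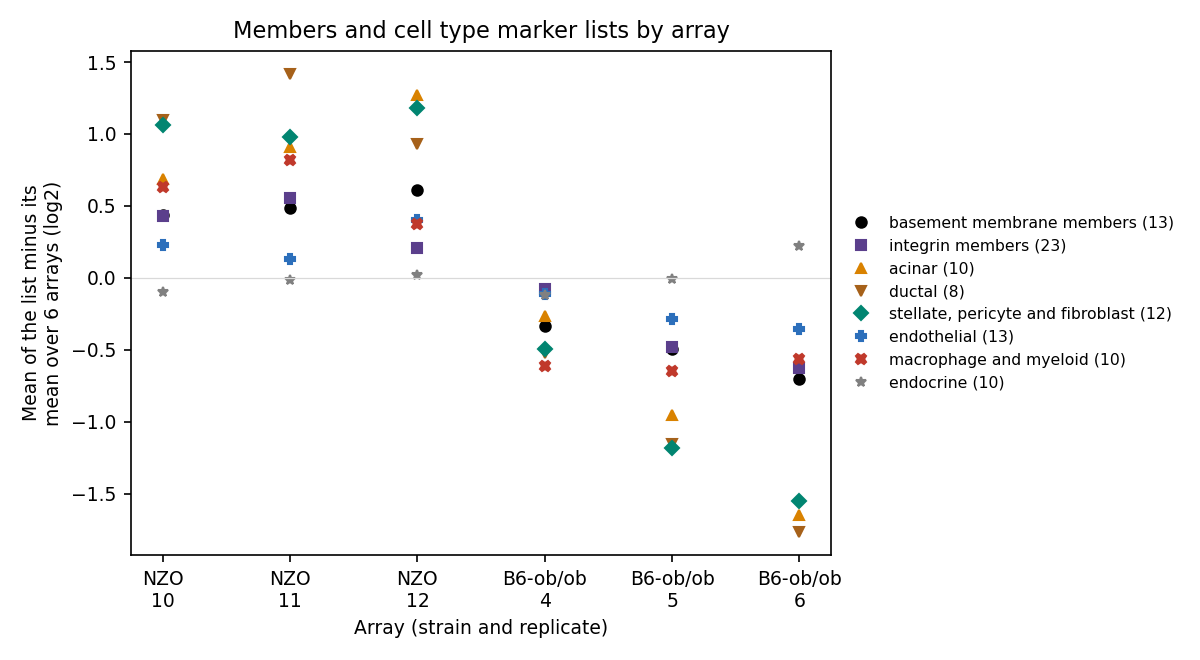
Mean log2 level of each gene list on each array, after subtracting the list's mean over 6 arrays, with the number of genes in brackets. Both parts of the set, the exocrine, stellate and myeloid lists and the endothelial list lie above 0 on every NZO array and below it on every B6-ob/ob array, while the endocrine list stays between -0.12 and 0.22.

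Among the laminin receptors, Itga6 and Itga7 were higher. Itga6 stood at 2.09, 2.60 and 2.59 in NZO islets, against 1.78, 1.47 and 1.44 in B6-ob/ob islets. Its difference was 0.86 (SE 0.19; 1.82-fold; adjusted p = 0.0225), and the call was lost without NZO replicate 11 or 12 or B6-ob/ob replicate 5 or 6 (adjusted p = 0.0547 to 0.0911) and with slide as a block (0.112). The Itga6 call was also lost with the mean of its probes. Its dimmer probes gave 0.57 (adjusted p over all probes 0.0238) and 0.82 (adjusted p over all probes 0.292). Itga7, the laminin receptor of muscle, measured -1.32, -1.70 and -1.45 in NZO islets and -2.24, -2.78 and -2.59 in B6-ob/ob islets, a difference of 1.05 (SE 0.18; adjusted p = 0.0101), or of 0.63 with normexp and quantile scaling (adjusted p = 0.00456). Itga3, the other laminin receptor tested, gave 0.29 (95% interval -0.01 to 0.59; adjusted p = 0.151).
Itgb4 pairs with Itga6 in the hemidesmosomes of epithelia, where it ties laminin to keratin. It had levels of 0.55, 1.08 and 0.87 in NZO islets and of -0.46, -1.07 and -1.66 in B6-ob/ob islets. The strains were 1.89 apart (SE 0.32; 3.71-fold; adjusted p = 0.00895), though the call missed the threshold with slide as a block (adjusted p = 0.0583). Ductal epithelium markers were higher for 6 of 8 and lower for 0 (75% called, against 22.2% of all genes). Muc1 and Cftr were above background on 0 B6-ob/ob arrays. The summed levels of the list overlapped, at 128, 144 and 105.1 in NZO islets and 131, 92.2 and 69.1 in B6-ob/ob islets. These sums consist mostly of Krt7, which was not called and had by far the highest intensity of the list. The mean log2 levels of the list did not overlap, at -0.35, -0.03 and -0.52 in NZO islets and -1.98, -2.60 and -3.22 in B6-ob/ob islets. The part of ductal cells in the Itgb4, Itga6 and Lamb3 values was not tested.

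Other receptors of the set bind fibronectin, tenascin and collagens. Itga5, the fibronectin receptor, measured -2.53, -2.20 and -3.11 in NZO islets and -3.30, -4.10 and -4.11 in B6-ob/ob islets, which differ by 1.22 (SE 0.32; adjusted p = 0.0395). Itga9, which binds tenascin and VCAM1, measured -0.82, -0.71 and -1.05 in NZO islets and -1.25, -1.79 and -1.88 in B6-ob/ob islets, which differ by 0.78 (SE 0.20; adjusted p = 0.0395). The strains did not overlap at either gene, but both calls were lost without single arrays. Itga5 missed the threshold without NZO replicate 10 or 11 or B6-ob/ob replicate 5 or 6 (adjusted p = 0.0898 to 0.135), and Itga9 without any array but B6-ob/ob replicate 4 (adjusted p = 0.0594 to 0.14). A second, dimmer Itga9 probe gave 0.49 (adjusted p over all probes 0.326), and the Itga9 call was also lost with the mean of its probes. With slide as a block the adjusted p was 0.0522 for Itga5 and 0.0791 for Itga9, and with normexp correction the Itga5 difference was 0.63 (adjusted p = 0.0289). Itga1, a receptor for type IV collagen, did not overlap between strains (-2.26, -2.54 and -2.31 in NZO islets, -2.67, -3.02 and -3.08 in B6-ob/ob islets) and just missed the threshold at 0.55 (adjusted p = 0.0511). Its second, dimmer probe gave 1.02 (adjusted p over all probes 0.00933). Itga10, the collagen receptor of cartilage, gave 0.00 (adjusted p = 0.995).

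The chains that pair with Itgav bind RGD ligands such as vitronectin and the latent form of TGF-beta. Itgav gave 0.50 (adjusted p = 0.0755) and Itgb5 gave 0.58 (adjusted p = 0.0724), each with all NZO arrays above all B6-ob/ob arrays and neither past the threshold. Itgb6 gave 1.18 with a wide interval (-0.48 to 2.84; adjusted p = 0.281) and was above background on 1 B6-ob/ob array. Itgb8 was the integrin called lower. Its levels were -4.67, -3.60 and -4.56 in NZO islets, against -3.38, -3.04 and -3.16 in B6-ob/ob islets, a difference of -1.08 (SE 0.30; adjusted p = 0.0485). That call was lost without any array but NZO replicate 11 (adjusted p = 0.0688 to 0.157), with slide as a block (0.0924) and with normexp correction (-0.26; adjusted p = 0.289). A second probe gave 0.60 (adjusted p over all probes 0.16), and the mean of both gave -0.24 (adjusted p = 0.352).
Itga2b and Itgb3 form the fibrinogen receptor of platelets. Itga2b gave 0.01 (adjusted p = 0.984) and Itgb3 gave -0.20 (adjusted p = 0.297). The second Itgb3 probe differed sharply from the first, with -3.61, -3.99 and -3.50 in NZO islets against -0.93, -1.08 and -1.45 in B6-ob/ob islets (-2.55; adjusted p over all probes 0.000582). The mean of both probes was called lower (-1.37; adjusted p = 0.00141). Platelet markers were higher for 1 of 3 tested and lower for 0, Ppbp and Gp6 not passing the filter, with overlapping sums of 0.634, 0.714 and 0.778 in NZO islets and 0.665, 0.540 and 0.537 in B6-ob/ob islets.

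**Figure D3:**
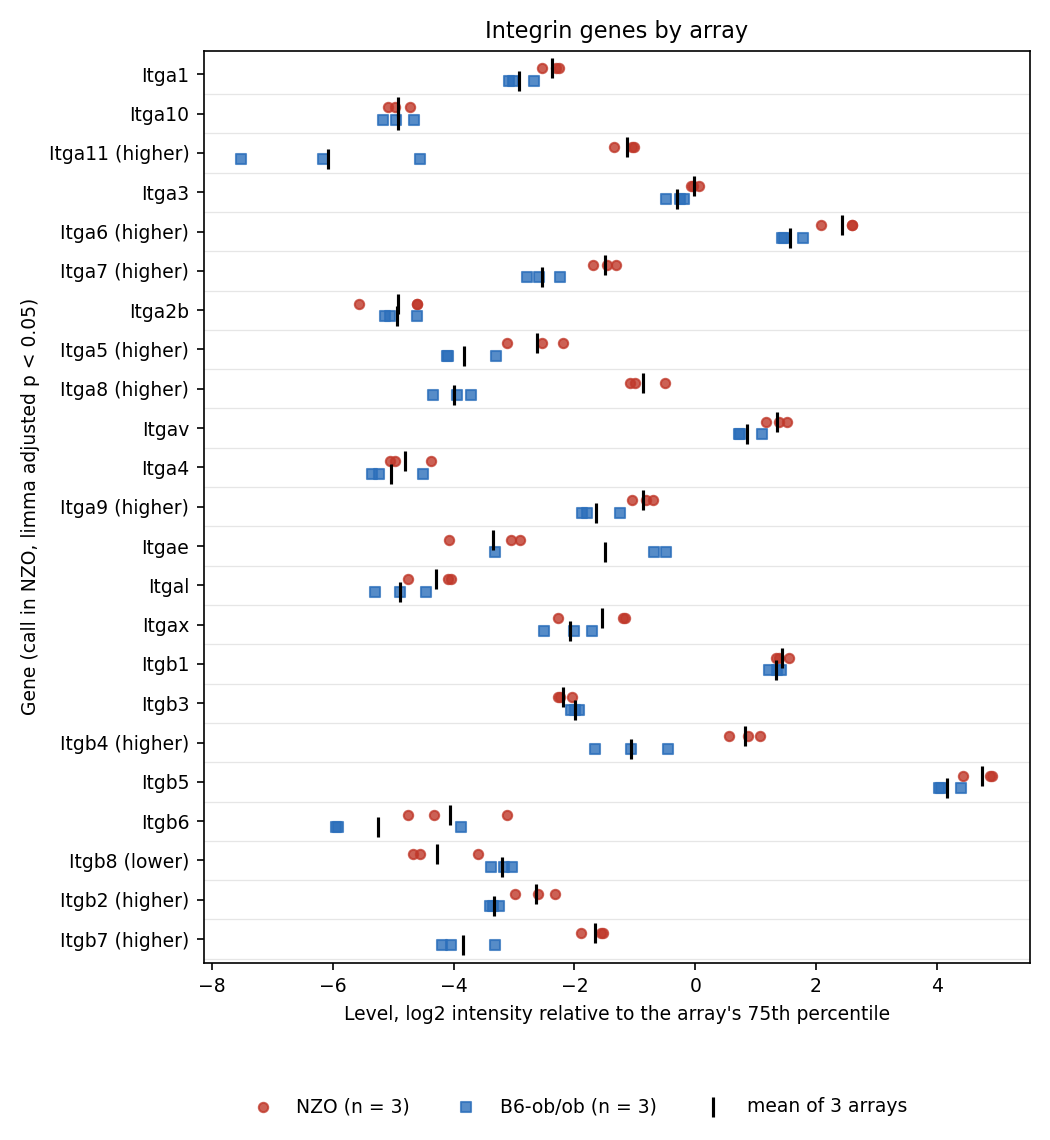
Levels of the 23 tested integrin genes on each array (log2 intensity relative to the array's 75th percentile; circles NZO, squares B6-ob/ob, bars the mean of 3 arrays), to be compared within a row only. Itga8 and Itga11 show the widest gaps between strains, Itgb1 none, and at Itgae B6-ob/ob replicate 6 lies far from the other B6-ob/ob arrays.

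Both beta chains of leukocyte integrins were higher, and 0 of 3 leukocyte alpha chains were called. Itgb7, the beta chain with which lymphocytes enter and stay in gut tissue, stood at -1.57, -1.88 and -1.53 in NZO islets, against -3.32, -4.05 and -4.19 in B6-ob/ob islets. The gap of 2.19 (SE 0.25; 4.56-fold; adjusted p = 0.0024) was larger than the spread within either strain, and was 1.205 with normexp correction (adjusted p = 0.00129). Itgb2, shared by most myeloid and lymphoid adhesion receptors, measured -2.32, -2.60 and -2.98 in NZO islets and -3.35, -3.41 and -3.25 in B6-ob/ob islets. It differed by 0.70 (adjusted p = 0.042), a call lost without any array but NZO replicate 12 (adjusted p = 0.0663 to 0.143) and with normexp and quantile scaling (0.32; adjusted p = 0.141).
Of their alpha partners, Itgal gave 0.59 (adjusted p = 0.205) at its brightest probe. Its second probe gave 1.63 (adjusted p over all probes 0.00352) and was at least 2.73-fold higher in NZO islets, since it was not well above background on any B6-ob/ob array; the bound sets the NZO mean against the B6-ob/ob mean of, on each array, the lowest signal well above background or the probe's own, whichever was higher. Itgax gave 0.53 (adjusted p = 0.357). Itga4, which pairs with Itgb7 or Itgb1, gave 0.23 (adjusted p = 0.621).
Itgae, the other partner of Itgb7 and a receptor for E-cadherin, had the largest standard error of the set. It had levels of -2.90, -3.05 and -4.08 in NZO islets and of -0.49, -0.69 and -3.32 in B6-ob/ob islets. B6-ob/ob replicate 6 lay among the NZO arrays, so the strains overlapped (difference -1.84; 95% interval -3.77 to 0.08; adjusted p = 0.158). Without that array the difference was -2.75 (adjusted p = 0.00764). At its second probe replicate 6 was again the lowest B6-ob/ob array, with -5.06, -5.09 and -6.21 in NZO islets and -2.53, -2.48 and -4.73 in B6-ob/ob islets. That probe was above background on only 1 NZO array. There all NZO arrays lay below all B6-ob/ob arrays, and the difference of -2.21 did not pass (adjusted p over all probes 0.063).
Macrophage and myeloid markers were higher for 5 of 10 and lower for 0 (50% called, against 22.2% of all genes). Their summed levels were 26.8, 29.7 and 15.2 in NZO islets and 7.03, 7.20 and 8.26 in B6-ob/ob islets. Cd163 was above background on 0 B6-ob/ob arrays. Lymphocyte markers were higher for 6 of 6 tested (100% called, against 22.2% of all genes). Their sums were 0.417, 0.452 and 0.381 in NZO islets and 0.200, 0.162 and 0.190 in B6-ob/ob islets. Of these 6, Cd8b1, Cd2 and Il7r were above background on 3 NZO arrays and 0 B6-ob/ob arrays. They passed the filter only through the NZO arrays. Another 7 of the 13 listed lymphocyte markers, among them Cd3d, Cd3g, Cd8a, Cd4, Cd79a and Ms4a1, did not pass the filter. The part of these cells in the leukocyte integrin values was not tested.

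Probe choice mattered for some genes. Of 58 measured probes of the set, 27 were higher and 3 lower when each was tested on its own, where 21.8% of all 24628 measured probes were called, 11.5% higher and 10.3% lower. There were 18 genes with more than 1 measured probe. In 3 of them, among them Itgb8 and Lama3, probes had opposite signs, and in 9 of them 1 probe was called and another was not.

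**Figure D4:**
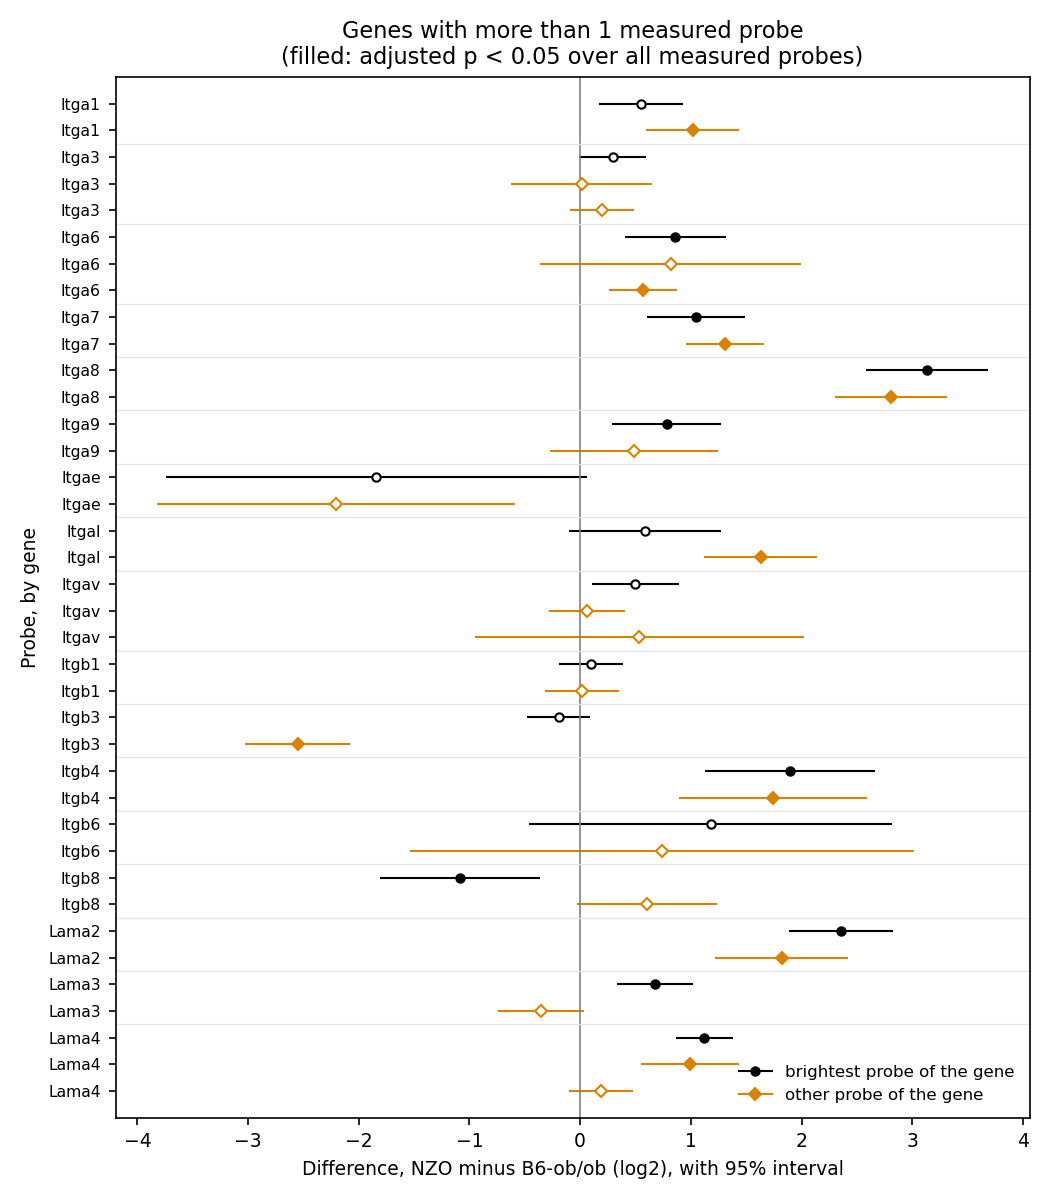
Difference of each probe (NZO minus B6-ob/ob, log2, with its 95% interval) for 17 genes with more than 1 measured probe; circles are the brightest probe of a gene, diamonds the others, and filled symbols passed adjusted p over all measured probes. The probes of Lama2, Itga8 and Itgb4 lie close together, while those of Itgb3, Itgb8 and Lama3 lie apart.

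The ligands and the inner partners of integrins were counted from lists outside the set. Of 28 tested integrin ligands outside the basement membrane, 22 were higher and 0 were lower (78.6% called, against 22.2% of all genes). Their median difference was 2.19 (27 of 28 above 0). Edil3, among the 22, was above background on 3 NZO arrays and 0 B6-ob/ob arrays. It passed the filter only through the NZO arrays. The greatest differences among called genes above background on all 6 arrays were for Col1a1, a chain of type I collagen (3.89; adjusted p = 0.00982), Vcam1, the vessel ligand of Itga4 and Itga9 (3.15; adjusted p = 0.038), and Col5a1, a fibril-starting collagen (3.14; adjusted p = 0.0111). Col1a1, Col1a2 and Col3a1 are on both this list and the stellate marker list.
Of 37 tested integrin activators and adhesion adaptors, 7 were higher and 1 was lower (21.6% called, against 22.2% of all genes), with a median of 0.19. Tns1, a tensin that binds integrin tails and actin (1.40; adjusted p = 0.00149), Flna, an actin crosslinker (1.37; adjusted p = 0.00305), and the kinase Src (1.10; adjusted p = 0.00274) were higher, and Lims1, a partner of integrin-linked kinase, was lower (-0.68; adjusted p = 0.00652). Some core activators and kinases, named after their values were seen, did not pass: Tln1 gave 0.05 (adjusted p = 0.817), Fermt2 gave -0.02 (adjusted p = 0.951), Ilk gave -0.23 (adjusted p = 0.213) and Ptk2 gave -0.30 (adjusted p = 0.104). The kinase Ptk2b, also named after its value was seen, was higher by 0.72 (adjusted p = 0.0145).
Of 23 tested other receptors and membrane partners, 6 were higher and 1 was lower (30.4% called, against 22.2% of all genes), with a median of 0.32. Gpc3, a glypican (2.38; adjusted p = 0.00236), Sdc1, a syndecan (2.32; adjusted p = 0.00388), and Dmd, which encodes dystrophin (1.22; adjusted p = 0.00127), were higher, and Sgcd, a sarcoglycan, was lower (-1.71; adjusted p = 0.0146). Dag1, which encodes dystroglycan, the receptor of agrin, perlecan and Lama2, gave -0.11 (adjusted p = 0.544). The differences between these lists were not tested. At an unadjusted limma p under 0.05 the counts of 0 lower genes given above remained 0, among the alpha integrins, the other basement membrane components, the ligands and each marker list but the endocrine one, where 2 genes were lower and 0 higher; 0 of the 3 leukocyte alpha chains passed it in either direction.

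**Figure D5:**
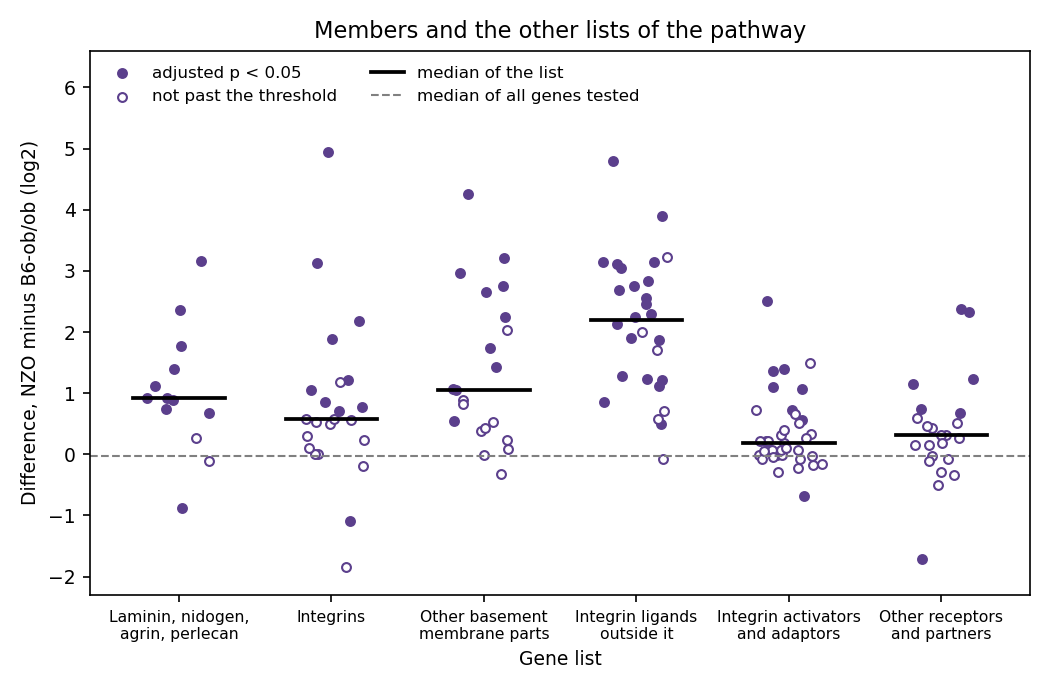
Difference of every tested gene (NZO minus B6-ob/ob, log2) in the set, split into its matrix and integrin genes, and in 4 other lists of the same pathway; filled points passed limma's adjusted p, bars are list medians and the dashed line is the median of all genes tested. The list medians run from 0.19 for the activators and adaptors to 2.19 for the ligands outside the basement membrane.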

How the data were processed

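Islet RNA of 3 NZO and 3 B6-ob/ob samples was hybridised to one-colour (Cy3) Agilent mouse arrays. The deposited scanner files hold each spot's processed signal, an intensity that the authors obtained with Agilent Feature Extraction, version 10.5.1.1 per the file headers and 9.1 per the submitters' processing notes. Probe positions are on mm9, per the file headers. The deposited value table was used only to check the labels.

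Here, log2 of the processed signal minus each array's 75th percentile was computed. Control spots and outlier spots (61 to 76 per array) were left out, and spots of a probe were averaged. A probe was kept (24628) if 3 or more arrays had it well above background, and the brightest kept probe stood for each gene name. Strains were compared with limma 3.58.1 in R 4.3.3 (lmFit and eBayes) p-values being adjusted by Benjamini and Hochberg over 16418 genes (threshold 0.05). Probe differences were adjusted over all kept probes. The fit was tested on simulated data.

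Per-array values are given for called genes, for the matrix genes and for genes whose arrays or probes disagree. From each companion list the text takes up to 3 called genes in each direction with the greatest absolute difference among those above background on all 6 arrays. Summed levels add the linear relative intensities of a marker list. The members, lists and marker genes were chosen with earlier results of these data known. Alternatives covered background correction, scaling, filter, probe choice, slide, variance model and leaving out each array. The number of arrays limits the precision. Genes were named as in the files, and some members and probes are not reported here.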

Additional observations from a re-analysis of the deposited data

How the results depend on the processing

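Of the 21 called genes of the set, 9 kept their call in all of the 17 alternatives that could test them: Agrn, Lama2, Lama4, Lamb2, Lamc1, Itga7, Itga8, Itga11 and Itgb7. The count of higher genes was 11 with slide as a fixed block, and ran from 11 to 20 when single arrays were left out, the 11 being without B6-ob/ob replicate 5. Of the 19 higher genes, 11 kept their call without each array, and of the 2 lower genes 1 did. The count of lower genes was 0 with slide as a fixed block, 1 with the mean of a gene's kept probes, 1 with a trended, robust variance prior, and 1 to 2 without single arrays. The median difference of 0.72 became 0.52 with normexp background correction, 0.48 with normexp and quantile scaling, 0.62 with no filter on dim probes, 0.86 with array weights and 0.47 within slide 2 (an alternative chosen after seeing the data), and 0.67 to 0.81 without single arrays. Counts over the 4 companion lists ran from 33 to 56 higher and 1 to 2 lower without single arrays, and array weights gave 4 lower. Itgb3 was called lower with normexp correction (-1.20) and with the mean of its probes (-1.37). The brightest probe was chosen anew after normexp correction, so the value of -1.20 may come from the second Itgb3 probe. That probe gave -2.55 with the processed signal, against -0.20 for the first. Over all genes, array weights called 6995, slide as a block 2329, and the fits without NZO replicate 11 and B6-ob/ob replicate 5 2137 and 1933, against 3643. The normexp offset makes differences of dim probes smaller, and the cause of these changes was otherwise not tested. The fits without 1 array use fewer samples. They called from 1933 genes (without B6-ob/ob replicate 5) to 3574 (without B6-ob/ob replicate 6). Slide as a random block gave an estimated correlation of 0.0444 and 20 higher genes. No analysis paired by replicate number was made, since the strains share none, and slide served as the block. Near background, Itga11, Lamb3 and Itgb6 have bounded precision in B6-ob/ob islets. Itga2b, Itga4 and Itgal were above background on 2 B6-ob/ob arrays, and Itga2b on only 2 NZO arrays.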

Other observations

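Some genes of the companion lists were picked after their values were seen. Of these, Fn1, Ntn4, Tinag, Edil3 and Fermt1 were read on NZO arrays but near background in B6-ob/ob islets. Sdc4 was above background on every array. Fn1, which encodes fibronectin, the ligand of Itga5 and Itga8, averaged -0.32 ± 0.48 in NZO islets and -5.12 ± 0.67 in B6-ob/ob islets (SD, n = 3 arrays each; above background on 1 B6-ob/ob array; limma adjusted p = 0.000779). Ntn4, a netrin that binds laminin, was above background on 3 NZO arrays and 0 B6-ob/ob arrays and was at least 4.89-fold higher in NZO islets. Tinag, a kidney tubule basement membrane protein, was at least 3.17-fold higher on the same terms, and Edil3, an RGD protein that binds Itgav, at least 3.36-fold. Fermt1, the epithelial kindlin, averaged -3.58 ± 0.21 in NZO islets and -6.09 ± 1.02 in B6-ob/ob islets (SD, n = 3 arrays each; above background on 1 B6-ob/ob array; limma adjusted p = 0.0151), while Fermt2, the widespread kindlin, gave a difference of -0.02. Sdc4, the syndecan of focal adhesions, averaged 2.52 ± 0.11 in NZO islets and 1.38 ± 0.08 in B6-ob/ob islets (SD, n = 3 arrays each; limma adjusted p = 0.00149).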
